A study of Mus musculus with 28 samples.

Results

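The 94 probes described here read lower after removal of doxycycline (Dox) in both the Tcl1 and the Etv5 line of mouse embryonic stem (ES) cells. They were found among 42006 probes of a two-colour array of 60-base probes. They were selected on measured values, chosen by the log2 ratio of the scanner's processed Cy3 signal, the sample, to its processed Cy5 signal, a common reference. A probe had to be well above background in Cy3 on all 28 arrays, which 23703 probes were. Its mean log2 ratio over the Dox+ arrays had to lie between -1 and 2, and its Dox+ means had to differ by less than 1 over the 7 lines, which left 16737 eligible probes. A member was then lower by at least 0.25, a fold of 1.19, in Tcl1 and in Etv5, with no overlap between Dox- and Dox+ replicates in either line. Its change in the Ctbp2 line had to be below 0.25. The Tcl1, Etv5 and Ctbp2 changes of the members are therefore descriptions and carry no test. The changes in the Tbx3, Jarid2, Jmjd2c and Mettl5 lines were not used in the choice and were tested. Their Dox+ levels did enter the level and range conditions, so the tests are not fully independent of the choice. Shares given over all probes tested include probes that did not meet those conditions.

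Each line carries 1 transgene that Dox keeps silent and that is switched on when Dox is washed out. Tcl1 is a cofactor that binds Akt kinases and raises their activity, and it is expressed in undifferentiated ES cells. Etv5 is an ETS-family transcription factor whose expression follows FGF and ERK signalling. Of the other induced genes, Tbx3 is a T-box factor of the pluripotency network and Jarid2 is a subunit of Polycomb repressive complexes. Jmjd2c is a histone lysine demethylase, Ctbp2 is a transcriptional corepressor and Mettl5 is an RNA methyltransferase. A probe that falls when a transgene is on reports less of its target RNA relative to the rest of the sample, and fewer cells with that RNA cannot be told apart from less of it per cell. Neither the scanner files nor the reference tables used here pair these probes with genes, so the members are given by probe ID and sequence. For the same reason neither the induced genes nor markers of ES cells or other cell types were checked.

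The cells were male ES cells of the 126S6/SvEvTac strain at passage 25, kept in medium with LIF on gelatin, and the names of all 7 lines carry MC1R(20). All 14 groups received puromycin at 1.5 µg/ml. In each line, Dox+ cultures were kept in Dox at 0.2 µg/ml and Dox- cultures were washed free of it, and RNA was taken 48 hours after the last wash. Each line was a single clone, with clone number 6 for Tcl1, 24 for Etv5, 15 for Tbx3, 37 for Jarid2, 14 for Jmjd2c, 23 for Ctbp2 and 15 for Mettl5. The cells of a line were split into 6 wells, 3 with and 3 without Dox, and 2 of each were hybridised. Replicates are thus wells of 1 clone, and p-values measure the spread between wells and arrays, not between clones. The Cy5 reference was RNA pooled from 11 mouse cell lines mixed at 2 to 1 with ES cell RNA.

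The arrays were of like depth. The number of probes well above background in Cy3 ran from 25428 to 28841 per array, and the median Cy3 spot signal from 81.3 to 117. Replicate arrays correlated at 0.972 to 0.997 over the probes tested, with the lowest values in the 2 Tbx3 groups. In every line but Tbx3 the 4 arrays shared a slide, with Dox+ arrays at positions 1 and 2 and Dox- arrays at positions 3 and 4. Position and Dox cannot be told apart in those lines. Dox- replicate 1 of Tbx3 lay on another slide than the other 3 Tbx3 arrays, and Tbx3 results are given with and without it.

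The sequences below are those on which the account turns: the 4 members with the largest mean fall over Tcl1 and Etv5, then the 2 with the largest tested rise in Tbx3. They are 30-base stretches of the probes, 5′ to 3′, as the scanner files give them, and capitals mark AATAAA, the hexamer of polyadenylation signals, where the stretch holds it. The stretch is bases 31 to 60 for the first and bases 1 to 30 for the others.
Z00076246-1: attccaAATAAActcctttgttcaccaagg
Z00077118-1: tgttcaactcatgttaccttcgatctaatt
Z00074777-1: gcagttaaccccgtccttcattcacacagt
Z00024989-1: cttaccccaatttagaagcctttggtcctg
Z00051444-1: ttcctgtaccagttgttagacaaagacaag
Z00076509-1: ttttttatactaaaattgaccattatattc

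2 pairs of members overlap in sequence, and were singled out after their values were seen. In the first pair, Z00075413-1 is Z00031132-1 shifted by 1 base, so that 59 bases are shared. In the second, the last 14 bases of Z00030608-1 are the first 14 of Z00074857-1. Capitals mark the shared bases, shown for bases 1 to 30 of each probe, and for bases 31 to 60 of Z00030608-1.
Z00031132-1: CAGGGCTGTAACAAGACAAACATGTCAACA
Z00075413-1: cCAGGGCTGTAACAAGACAAACATGTCAAC
Z00030608-1: tagaatacagtgttagCAATGGTGTCTACA
Z00074857-1: CAATGGTGTCTACAcagggtgtgatctgcc
None of the 41912 other probes on the array shared 20 or more bases in a row with a member. Shorter overlaps with other probes, such as the 14 bases of the second pair, were not sought.

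On the processed log2 ratio that chose them, the members fell in Tcl1 by a median of 0.39, a fold of 1.31, and the fall ran from 0.26 to 1.16. In Etv5 the median fall was 0.34, a fold of 1.26, with a range of 0.25 to 0.77. Among the 16737 eligible probes, 802 (4.79%) met the fall and overlap conditions in Tcl1 and 564 (3.37%) met them in Etv5, against all 94 members by construction. Without the Ctbp2 condition, 102 eligible probes fell in both lines. The count is 12.7% of the 802 falls in Tcl1 and 18.1% of the 564 in Etv5. The same size and overlap conditions held for 80 probes that rose in both Tcl1 and Etv5, and for 83 that fell in one line and rose in the other.

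Values at the edges of the rule show how close the choice lies to its thresholds. Just inside the Tcl1 threshold were Z00046464-1 and Z00040746-1, both with a change of -0.26 on the processed scale. Just outside it were Z00074221-1 at -0.249 and Z00025202-1 at -0.244. In Etv5, Z00019083-1 and Z00059605-1 lay just inside, at -0.2504 and -0.2506, and Z00018912-1 and Z00054866-1 just outside, at -0.247 and -0.243. For Ctbp2, Z00040642-1 and Z00064347-1 lay inside at 0.22 each, and Z00024913-1 and Z00023809-1 outside at 0.26 each. Probes on either side of a threshold differed little in value.

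For levels and tests a second scale was used, the log2 Cy3 over Cy5 ratio after normexp background correction with an offset of 50 and within-array loess. On this scale all 94 members were lower without Dox in Tcl1 and 93 in Etv5, and 81 had no overlap in either line. The median fall was 0.23 in Tcl1 and 0.25 in Etv5. A fall of 0.25 was reached by 41 members in Tcl1, by 50 in Etv5 and by 34 in both, and 37 reached it in neither. The remainder of the account uses the loess scale unless stated.

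The difference between the scales followed the brightness of the members, which were dim. Their Cy3 processed signal had a median of 224 (46 to 5461), against 1736 for the eligible probes. The median ratio of spot signal to local background was 3.01 for members and 14.7 for eligible probes. When the eligible probes were divided into 4 equal parts by signal, the dimmest held 55 members, the next 30, the third 9 and the brightest 0. In the dimmest part the members' median change in Tcl1 was -0.41 on the processed scale and -0.17 on the loess scale. In the third it was -0.39 and -0.38. In Etv5 the medians were -0.36 and -0.21 in the dimmest part, and both scales gave -0.30 in the third. Falls of the same size in a single line were also commoner among dim probes: the share of eligible probes that fell in Tcl1 was 9.15%, 5.02%, 3.13% and 1.86% from the dimmest part to the brightest. The shares that rose in Tcl1 were 8.43%, 5.00%, 2.27% and 0.645%, so that rises declined with signal as well.

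The channels are given apart as a description, since the choice of members used their ratio. With each channel's processed signal centred on its median, the members' median change in Cy3 was -0.35 in Tcl1 and -0.32 in Etv5. In Cy5, the reference, it was 0.01 and 0.02. Cy3 alone was lower in 87 of 94 members in Tcl1 and 90 in Etv5, while Cy5 was higher in 52 and 53. No member had a spot flagged as an outlier on any array, none was saturated and none had more than 1 spot per array.

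The member with the largest mean fall was Z00076246-1, the probe that holds AATAAA in the stretch above. Its log2 ratio in Tcl1 was 1.15 and 1.09 with Dox and 0.45 and 0.40 without. In Etv5 it was 1.26 and 1.27 with Dox and 0.78 and 0.82 without. The changes were -0.70 and -0.46, each with a standard error (SE) of 0.06 and n = 2 against 2. The Dox+ and Dox- values did not overlap in either line, which the rule required of every member on the processed scale.

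Z00077118-1 had the largest fall of the members in Tcl1. It stood at -0.93 and -0.93 with Dox in Tcl1 and at -1.62 and -1.73 without, a change of -0.74 (SE 0.06). In Etv5 it went from -0.03 and -0.10 to -0.33 and -0.44, a change of -0.32. The fall was larger in Tcl1 although the Dox+ level there was already below that in Etv5.

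Z00074777-1 showed the same order of falls. Its values in Tcl1 were -1.17 and -1.19 with Dox and -1.85 and -1.86 without, a change of -0.68 (SE 0.05). In Etv5 they were -0.63 and -0.69 with Dox and -1.02 and -1.06 without, a change of -0.38.

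Z00024989-1 was at 0.99 and 1.03 with Dox in Tcl1 and at 0.44 and 0.38 without, a change of -0.60 (SE 0.08). In Etv5 it went from 1.53 and 1.63 to 1.17 and 1.09, a change of -0.45. These 4 members fell more in Tcl1, whereas over all members the fall was larger in Tcl1 for 44 and larger in Etv5 for 50.

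The overlapping probes gave like values in Tcl1 and Etv5, where the rule required both probes of a pair to fall. Z00031132-1 and Z00075413-1 changed by -0.35 and -0.34 in Tcl1 and by -0.37 and -0.33 in Etv5. Z00030608-1 and Z00074857-1 changed by -0.29 and -0.36 in Tcl1 and by -0.30 and -0.29 in Etv5. Over all 7 lines the probes of a pair differed by at most 0.10 in the first pair and 0.12 in the second. The sign of the change was shared in 5 of 7 lines in each pair, and the signs that differed belonged to changes of at most 0.11 in size.

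The levels behind these changes are also a description. Each array was read against the mean Dox+ level of the 5 other lines, probe by probe. The members' median stood at 0.08 and 0.10 on the Tcl1 Dox+ arrays and at 0.14 and 0.10 on the Etv5 Dox+ arrays. On the Dox- arrays it stood at -0.12 and -0.15 in Tcl1 and at -0.11 and -0.12 in Etv5. On the arrays of the 5 other lines it stayed between -0.09 and 0.07, and over the eligible probes it stayed between -0.02 and 0.02 on all 28 arrays. In Tcl1, 41 members were lower without Dox than in all 10 groups of the other 5 lines, 31 were higher with Dox than in all 10, and 3 were both. In Etv5 the counts were 36, 34 and 5. The rule selected on these Dox+ and Dox- values, so nothing is read from the side on which they lie.

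The question for the remaining lines was whether the members also moved when another transgene was switched on. In Tbx3 they were mostly higher without Dox. The log2 ratio rose in 73 of 94 (77.7%), against 45.3% of the eligible probes, and the median change was 0.08 (-0.18 to 0.35) against -0.02. The Tbx3 Dox- values lay above both Dox+ values in 33 members (35.1%), where 12.6% of eligible probes did so. They lay below both in 2 members (2.13%), where 15.9% of eligible probes did so. By limma's moderated test with Benjamini-Hochberg adjustment over all probes tested, 6 members rose, where 3.07% of 28883 probes did, and 0 fell, where 4.10% did. At an unadjusted p under 0.05, 21 members were higher and 1 was lower, in all 23.4% of members against 24.8% of all probes (11.5% higher and 13.3% lower). Without Dox- replicate 1, the array on the other slide, the median change was 0.07 but only 1 member passed, where 0.329% of all probes did. Without Tbx3 Dox+ replicate 2 the median change was 0.10, and without Tbx3 Dox- replicate 2 it was 0.08. The number of members past the test depended on the array left out.

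The largest tested rise in Tbx3 was that of Z00051444-1. Its log2 ratio was -0.98 and -1.07 with Dox and -0.58 and -0.77 without, so that the groups did not overlap. The change was 0.35 (SE 0.05, limma adjusted p = 0.00101). Within the slide it was 0.25 (SE 0.04, limma adjusted p = 0.0131), and this was the 1 member that still passed. In Tcl1 the same probe went from -0.50 and -0.51 to -0.74 and -0.73, and in Etv5 from -0.58 and -0.58 to -0.82 and -0.83. The Tbx3 line had the lowest Dox+ values of the 3 lines. Tbx3 Dox- replicate 1, the array on the other slide, matched the Dox+ values in Etv5. Tbx3 Dox- replicate 2, at -0.77, lay instead near the Dox- values in Tcl1 and Etv5.

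Z00076509-1 rose by 0.33 in Tbx3 (SE 0.08, limma adjusted p = 0.0169). Its values were 0.62 and 0.84 with Dox and 1.16 and 0.96 without. Within the slide the change was 0.23 and did not pass (limma adjusted p = 0.282), nor did it pass without Dox+ replicate 1 (0.22, limma adjusted p = 0.0727) or with the slide as a random block (0.29, limma adjusted p = 0.06). In Tcl1 this probe changed by -0.29 and in Etv5 by -0.31. The other 4 members that passed in Tbx3 rose by 0.18 to 0.28. They include Z00076246-1, the probe with the largest mean fall over Tcl1 and Etv5, which went from 0.25 and 0.42 to 0.50 and 0.61 (change 0.22, SE 0.06, limma adjusted p = 0.0284). Within the slide that change was 0.27 with a limma adjusted p of 0.0649.

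In Mettl5 the members leaned the other way. The log2 ratio was lower without Dox in 69 of 94 (73.4%), against 50.8% of eligible probes, and the median change was -0.08 (-0.22 to 0.11) against 0.00. Both Dox- values lay below both Dox+ values in 54 members (57.4%), where 24.3% of eligible probes did so. They lay above in 6 (6.38%), where 22.6% did so. By limma's moderated test no member passed in either direction, while 0.0208% of all 28883 probes rose and 0.00346% fell. At an unadjusted p under 0.05, 16 members were lower and 0 higher, against 2.47% and 2.60% of all probes. The lean was present at each brightness that holds members: 37 of 55 were lower in the dimmest part, 24 of 30 in the next and 8 of 9 in the third. Of the eligible probes in these parts, 49.6%, 49.5% and 49.4% were lower.

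The 2 members with the smallest p in Mettl5 were Z00040746-1 and Z00076246-1. Z00040746-1 stood at -0.85 and -0.83 with Dox and at -1.07 and -1.04 without, a change of -0.21 (SE 0.05, limma adjusted p = 0.254). Z00076246-1 stood at 0.74 and 0.71 with Dox and at 0.56 and 0.49 without, a change of -0.20 (SE 0.06, limma adjusted p = 0.348). The replicate values did not overlap in either, and neither passed the test.

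In Jmjd2c the lean was smaller and in the same direction as in Mettl5. The log2 ratio was lower in 63 members (67.0%), against 50.7% of eligible probes, with a median of -0.04 (-0.26 to 0.21) against 0.00. The median was -0.01 without Jmjd2c Dox- replicate 1 and -0.06 without Jmjd2c Dox- replicate 2. The replicates lay apart and lower in 34 members (36.2%), where 22.9% of eligible probes did so. They lay apart and higher in 12 (12.8%), where 20.5% did so. No member passed limma's moderated test, in which 0.360% of all probes rose and 0.0554% fell. At an unadjusted p under 0.05, 9 members were lower and 3 higher, against 3.14% and 3.86% of all probes. Z00060346-1 had the smallest p: it went from 1.18 and 1.22 with Dox to 0.93 and 0.95 without, a change of -0.26 (SE 0.07, limma adjusted p = 0.129). Without the 4 Tbx3 arrays it passed (limma adjusted p = 0.0248). Leaving out Tbx3 Dox+ replicate 1 or Tbx3 Dox+ replicate 2 gave a limma adjusted p of 0.036 each. The next was Z00076246-1 again, from 0.79 and 0.80 to 0.60 and 0.59, a change of -0.20 (SE 0.06, limma adjusted p = 0.204, and 0.0235 without the 4 Tbx3 arrays).

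In Jarid2 the members' median change was small. The log2 ratio was higher in 59 members (62.8%), against 46.7% of eligible probes, with a median of 0.02 (-0.23 to 0.20) against -0.01. On the processed scale 49 (52.1%) were higher and 45 lower, where 42.7% of eligible probes were higher. The median there was 0.003 against -0.013. The replicates lay apart and higher in 26 members (27.7%), where 21.9% of eligible probes did so, and apart and lower in 18, where 26.4% did so. No member passed limma's moderated test, in which 0.00692% of all probes rose and 0.00346% fell. At an unadjusted p under 0.05, 6 were higher and 5 lower, in all 11.7% of members against 4.85% of all probes (2.72% higher and 2.13% lower). The smallest p belonged to Z00030754-1, which went from 0.31 and 0.41 to 0.58 and 0.50 (change 0.18, SE 0.06, limma adjusted p = 0.814). Z00055231-1 followed, from 0.68 and 0.65 to 0.41 and 0.45 (change -0.23, SE 0.08, limma adjusted p = 0.822).

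Averaged over these 4 lines, the members showed no call. By limma's moderated test of the mean change, no member passed in either direction, while 0.0277% of all 28882 probes rose and 0% fell. At an unadjusted p under 0.05, 2 members were higher and 3 lower, in all 5.32% of members against 7.63% of all probes. The 2 with the smallest p were Z00040746-1, with a mean change of -0.08 (SE 0.03, limma adjusted p = 0.46), and Z00030145-1, with -0.11 (SE 0.04, limma adjusted p = 0.487). Z00030145-1 was below 0 in all 4 lines, at -0.05 in Tbx3, -0.20 in Jarid2, -0.13 in Jmjd2c and -0.07 in Mettl5.

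Changes in the 4 lines ran in opposite directions, and the test of a difference among the 4 lines passed for 7 members (7.45%), where 2.07% of all probes passed. In all 7 the Tbx3 change was above 0 and the Jmjd2c and Mettl5 changes were below it. Z00051444-1 had the smallest value (limma F test, adjusted p = 0.00385), with changes of 0.35 in Tbx3, -0.07 in Jarid2, -0.04 in Jmjd2c and -0.09 in Mettl5. Z00076246-1 (limma F test, adjusted p = 0.0102) changed by 0.22, 0.07, -0.20 and -0.20 in the same order. Over the whole list, 54 of 94 members (57.4%) were higher in Tbx3 and lower in Mettl5, against 27.1% of eligible probes. When the Tbx3 arrays were left out, 2 members passed the test of a difference among the remaining 3 lines. The number past the test of a difference also changed when single arrays of every line were left out, and most for some Tbx3 arrays.

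The changes of lines with the same array layout were alike for some pairs of lines and opposed for others. Over the 16737 eligible probes, the changes in Etv5 correlated with those in Mettl5 at r = 0.44 and with those in Jmjd2c at r = 0.29. In Tcl1 the correlations were 0.08 with each. The changes in Tbx3, whose arrays took other positions, correlated with those in Etv5 at -0.16 and with those in Tcl1 at -0.16. Those in Jarid2, which has the same layout as Etv5 and Tcl1, correlated with them at -0.19 and -0.14, and with those in Mettl5 and Jmjd2c at -0.05 each. Etv5 and Tcl1 correlated at 0.11 over these probes. These lines share no control arrays, but apart from Tbx3 they share the order of Dox+ and Dox- on the slide, and the probes of an array are not independent. The part of array position in the members' changes was not tested.

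Probes that fell in only 1 of the lines place the members' leans. With the same limit on the Ctbp2 change, 598 eligible probes met the fall and overlap conditions in Tcl1 and had an Etv5 change above -0.25, and 415 met them in Etv5 and had a Tcl1 change above -0.25. In Mettl5 the median change was -0.08 for the members, -0.05 for the probes of Etv5 alone and -0.01 for those of Tcl1 alone, and the shares below 0 were 73.4%, 77.1% and 58.4%. In Tbx3 the medians were 0.08, 0.04 and 0.04, and the shares above 0 were 77.7%, 63.9% and 61.2%. The shares below 0 in Jmjd2c were 67.0%, 66.0% and 56.9%. Those above 0 in Jarid2 were 62.8%, 61.7% and 51.7%. The share of members past the test in Tbx3 as a rise was 6.38%, against 5.54% of the probes of Etv5 alone and 4.68% of those of Tcl1 alone. In the same order, non-overlapping falls in Mettl5 were found in 57.4%, 45.1% and 29.8%, and those in Jmjd2c in 36.2%, 36.1% and 30.6%. Non-overlapping rises in Tbx3 were found in 35.1%, 23.6% and 20.6%, and those in Jarid2 in 27.7%, 34% and 26.6%. The test of a difference among the 4 lines passed for 7.45%, 2.89% and 2.84%. The members therefore shared the direction of both groups in Tbx3. By the shares below or above 0 they lay closer to the probes of Etv5 alone in Mettl5, Jmjd2c and Jarid2. The direction of these leans is thus not particular to the members. These differences between lists were not tested.

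The Ctbp2 line entered the rule with an upper limit, and its values are a description. The members' median change there was -0.05 on the loess scale, and 63 of 94 (67.0%) were lower, against 55.5% of eligible probes. On the processed scale 12 members (12.8%) were lower by at least 0.25, against 3.32% of eligible probes. Z00076246-1 was among the members that were higher, from 0.54 and 0.56 with Dox to 0.77 and 0.74 without. In all 7 lines, 3 members were lower without Dox.

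The probe sequences themselves set the members little apart from the eligible probes. The median share of G and C was 45% in both, with a range of 31.7% to 61.7% in the members. A frame without a stop codon among the 3 sense frames was present in 78 members (83.0%) and in 83.2% of eligible probes. The polyadenylation hexamer AATAAA was searched on the strand given, and 11 members (11.7%) held it, against 7.56% of eligible probes and 6.93% of all probes. The variant ATTAAA was in 5 members (5.32%), against 3.37% and 3.19%. Either was in 16 members (17.0%), against 10.8% of eligible probes. On the other strand, read as TTTATT, the first hexamer was in 4 members (4.26%), against 3.09% of eligible probes. The dinucleotide CG was in 56 members (59.6%), against 57.5%. A match is a description of the probe's letters. It does not place the probe in a gene.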

How the data were processed

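The scanner output of 28 arrays was read with Cy3 as sample and Cy5 as reference. Per the file headers, intensities were extracted by the authors with Agilent Feature Extraction 9.5.1.1 under protocol GE2-v5_95_Feb07, and the processed signals are background-subtracted and dye-normalised intensities. The authors' deposited table of log10 values correlated with log10 Cy3 processed signal at 0.993 to 0.997 per array, and its centring is not stated. For named members its changes nearly equalled those of the processed log ratio. Z00051444-1 in Tbx3 changed by 0.4049 in the table and 0.4050 on the processed log ratio, and Z00060346-1 in Jmjd2c by -0.286 in each. It holds 25030 probes and 63 of the members. It served as an alternative, but is not separate from the scale that chose the members. Control spots (the array has 43451 spots, 42034 not controls) and flagged spots were left out. Spots were background-corrected (normexp, offset 50) and loess-normalised within arrays, and spots of a probe were averaged. Probes well above background on both arrays of at least 1 group (28884) were tested with limma 3.58.1 in R 4.3.3, in 1 model of 14 group means with 14 residual degrees of freedom. P-values are two-sided and adjusted over all probes tested. The model was tested on simulated data.

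The members, lists and tests were chosen with earlier results of these data known. Named members were the 4 with the largest mean fall, the 2 with the largest rise and fall past each test (or the 2 with the smallest p where none passed), and those nearest each threshold. Gene lists could not be used without gene names. The number of arrays limits the precision. Alternatives were other normalisations, filters, blocks and left-out arrays.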

Additional observations from a re-analysis of the deposited data

Results flagged for a closer look

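The change without Dox differed among the Tbx3, Jarid2, Jmjd2c and Mettl5 lines for 7 of the 94 members by limma's F test with Benjamini-Hochberg adjustment over all probes, where 2.07% of all probes tested passed. Of the members named for another reason, Z00076246-1 passed with a limma adjusted p of 0.0102 and Z00051444-1 with 0.00385. In both, the change was above 0 in Tbx3 and below 0 in Jmjd2c and Mettl5.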

How the results depend on the processing

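The number of members was 163 with a fall of at least 0.2, 52 with 0.3 and 34 on the loess scale. By the authors' table, which holds 63 members and nearly repeats the processed log ratio, the number was 61, which is no separate check. It ran from 88 to 131 when 1 array was left out, but the list itself also changed. Without Tcl1 Dox+ replicate 1, 103 probes met the rule, 73 of them members. Without Etv5 Dox+ replicate 1, 93 probes met it, 75 of them members. With the Cy3 channel alone 84 probes met the rule, 51 of them members. In Tbx3, 15 members passed with median centring, 14 by the authors' table and 0 when only that line's 4 arrays were fitted, and 1 to 17 when 1 array was left out. In Jmjd2c, 1 passed by the authors' table, 1 with Cy3 alone and 2 without the Tbx3 arrays, and 0 to 1 when 1 array was left out. For the mean over 4 lines, 1 passed by the authors' table and 3 without the Tbx3 arrays, and 0 to 1 when 1 array was left out. For the difference among the lines, 1 passed with median centring, 15 by the authors' table, 4 with no filter and 2 without the Tbx3 arrays, and 4 to 18 when 1 array was left out. In Jarid2 and Mettl5 the count was 0 under all alternatives run. A lone array left in a group was assumed to vary like the other groups. Apart from the fit of Tbx3 within its slide, shares of all probes that passed are not given for these alternatives. A moved count is therefore not read as a result about the members.

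No median change of the members in a tested line changed its sign under the alternatives, and no named change did. Over the normalisations tried the medians ran from 0.06 to 0.13 in Tbx3, 0.003 to 0.03 in Jarid2, -0.06 to -0.03 in Jmjd2c and -0.14 to -0.07 in Mettl5. With the replicate number as a block, 8 members passed in Tbx3, 5 passed the difference and the other counts stayed at 0. Arrays with the same replicate number in their titles correlated in their deviations at 0.43 in Tcl1, 0.17 in Tbx3 and between -0.06 and 0.05 in the other lines. These numbers were therefore not taken to pair the wells. They partly differ from the well numbers in another label of the samples, and pairing by those was not tested. The members' low signal over background, a median of 3.01, limits what can be read from small changes.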
